A study of Homo sapiens with 4 samples.

Results

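The CpG island methylator marker genes analyzed here were *CDKN2A*, *MGMT*, *CACNA1G*, *NEUROG1*, *RUNX3*, *SOCS1*, *CRABP1*, *RASSF1* and *TIMP3*. They were chosen by name, with earlier results of these data known. Every expression probe whose RefSeq accession maps to one of these symbols was used. This gave 13 probes for the 9 genes among 34892 named probes for 25006 genes. CpG islands are stretches of DNA rich in the dinucleotide CG, and they cover the promoters of many genes. In most normal tissues these islands are free of methylation. In a subset of colorectal cancers many of them become methylated together, which is known as the CpG island methylator phenotype, and methylation of a promoter island usually goes with silencing of its gene. The 9 genes belong to panels by which tumors are tested for this phenotype or for silencing of tumor-suppressor genes.

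The cells were HML58-3, a derivative of the human colon cancer cell line HCT116, in which a luciferase reporter was placed under a methylated marker promoter. The 4 groups were mock-treated cells and cells given DAC (decitabine), OR-2003 or OR-2100, each at 1 μM and dissolved in DMSO. DAC is a nucleoside analog that traps DNA methyltransferases and thereby lowers DNA methylation in dividing cells, and the OR compounds are described by the study as prodrugs that release DAC. Drug exposure began on day 1, and RNA was taken on day 5. Values for the drugs are given below in the order DAC, OR-2003, OR-2100. All groups share the derivative line with its reporter, so that the values apply to this line. There was 1 one-colour Agilent array per condition, and the same mock array served all 3 comparisons. No difference between conditions therefore has a replicate check, and no test between conditions was run. DNA methylation was not analyzed here.

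Levels below are log2 intensities, scaled so that the 75th percentile over gene probes was 0 on every array. A level of -1 or more was taken as positive expression, as in the methods of the study. A gene was called induced where its signal with a drug exceeded mock by 2-fold or more and its level with that drug was -1 or more. It was called reduced where the signal was lower by 2-fold or more and its mock level was -1 or more. A gene was read from its probe with the highest mean level. Each member probe has 1 spot, and the errors given are those that the scanner software estimated for the spot. They include a part proportional to the signal and do not hold any difference between cultures. On each array, 54.3% to 57.2% of the 58201 gene probes were well above background, and none was saturated. The epithelial markers *EPCAM*, *CDH1*, *KRT8*, *KRT18*, *KRT19* and *CDX2* were well above background on all 4 arrays, whereas *VIL1*, the gene of the microvillus protein villin, was not on the mock array. *EPCAM* and *CDH1* were both called reduced with each drug, with log2 differences from -1.52 to -1.09. The other epithelial markers were higher with each drug and met neither criterion. *KRT8* differed by 0.59, 0.59 and 0.47, *KRT18* by 0.59, 0.52 and 0.46, *KRT19* by 0.38, 0.31 and 0.32 and *CDX2* by 0.35, 0.15 and 0.20, and *VIL1* was at least 1.37, 1.71 and 1.79-fold higher. The median over the 7 epithelial markers was 0.38, 0.31 and 0.32. Of the markers of other cell types, *PTPRC* and *PDGFRB* were well above background on all 4 arrays, but under the positive level. Their levels on the mock array were -1.48 and -2.63. *PECAM1* and *COL1A2* lay at the background without drug and were well above it with each drug. With the drugs *PECAM1* was at least 8.40, 8.90 and 9.05-fold higher, still under the positive level. The part of these marker differences in the results was not tested. In these cultures, fewer cells of a kind and less RNA per cell cannot be told apart.

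The promoters of the 9 genes were first examined in the RefSeq promoter windows (GRCh38.p14), of which the 250 bases before each start were used. Windows were found for 8 of the 9 genes, 10 in all, and *CACNA1G* had none. The motif searched was CG, which reads the same on both strands. The 6 windows printed are those of the genes whose levels differed most between mock and drug among the members measured, with every CG in capitals.
CRABP1, chr15:78340103-78340352, plus strand: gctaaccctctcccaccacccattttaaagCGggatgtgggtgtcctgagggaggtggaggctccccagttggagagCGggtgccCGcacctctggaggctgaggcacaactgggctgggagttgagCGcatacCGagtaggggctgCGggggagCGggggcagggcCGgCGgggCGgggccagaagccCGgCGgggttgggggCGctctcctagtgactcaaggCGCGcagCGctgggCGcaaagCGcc
SOCS1, chr16:11256205-11256454, minus strand: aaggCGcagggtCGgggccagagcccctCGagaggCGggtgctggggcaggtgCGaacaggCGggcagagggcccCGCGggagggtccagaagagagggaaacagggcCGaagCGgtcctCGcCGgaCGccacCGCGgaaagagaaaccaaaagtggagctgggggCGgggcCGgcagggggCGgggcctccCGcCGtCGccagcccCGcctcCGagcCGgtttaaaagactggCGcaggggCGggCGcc
TIMP3, chr22:32801455-32801704, plus strand: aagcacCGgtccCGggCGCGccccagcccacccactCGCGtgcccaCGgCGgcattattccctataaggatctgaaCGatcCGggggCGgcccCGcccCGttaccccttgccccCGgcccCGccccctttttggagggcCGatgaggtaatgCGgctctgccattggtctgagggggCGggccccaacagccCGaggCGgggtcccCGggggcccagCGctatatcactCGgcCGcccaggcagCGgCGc
MGMT, chr10:129466991-129467240, plus strand: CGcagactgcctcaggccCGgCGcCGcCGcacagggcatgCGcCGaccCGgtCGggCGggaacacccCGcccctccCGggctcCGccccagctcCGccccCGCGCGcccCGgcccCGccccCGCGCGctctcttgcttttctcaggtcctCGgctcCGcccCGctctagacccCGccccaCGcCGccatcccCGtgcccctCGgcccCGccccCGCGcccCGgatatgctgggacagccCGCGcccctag
CDKN2A, upstream start, chr9:21995325-21995574, minus strand: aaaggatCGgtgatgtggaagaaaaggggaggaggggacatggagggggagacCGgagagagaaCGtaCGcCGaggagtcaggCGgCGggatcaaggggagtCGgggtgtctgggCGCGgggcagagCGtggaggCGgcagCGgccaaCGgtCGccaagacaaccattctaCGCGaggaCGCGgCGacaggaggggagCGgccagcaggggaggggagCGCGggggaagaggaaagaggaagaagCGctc
CDKN2A, downstream start, chr9:21974858-21975107, minus strand: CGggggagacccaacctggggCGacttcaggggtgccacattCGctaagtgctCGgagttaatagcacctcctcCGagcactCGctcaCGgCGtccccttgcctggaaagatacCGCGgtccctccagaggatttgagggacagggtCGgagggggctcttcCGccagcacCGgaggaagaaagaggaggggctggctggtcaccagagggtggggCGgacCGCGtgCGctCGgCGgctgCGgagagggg
The *CRABP1* window held 18 CG and the *SOCS1* window 27. The *TIMP3* window held 26, and the *MGMT* window 36, which only 4.85% of all 35114 windows reached. *CDKN2A* has a separate promoter for each of its proteins, and the upstream window held 24 CG while the downstream window, 20467 bases further into the gene, held 20. The *NEUROG1* window held 30 and the *RASSF1* window, which lies 3386 bases inside the gene, held 25. *RUNX3* also has an upstream and a downstream promoter, with 13 and 33 CG. Over all windows the quartiles were 3, 11 and 23 CG, and 93.9% held at least 1. All 10 windows of the members were thus above the median of 11, and 7 of them were above the upper quartile. The number of CG observed over that expected from base composition ranged from 0.46 in the upstream *RUNX3* window to 1.08 in the upstream *CDKN2A* window, with a median of 0.56 over all windows. These windows show the sequence of the reference genome, and nothing of its methylation in these cells.

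*CRABP1* and *SOCS1* were induced with DAC, with OR-2003 and with OR-2100, and *MGMT* was reduced with each drug. The other 6 genes met neither criterion. The 2 of 9 genes induced stand beside 5.77%, 5.89% and 5.81% of all named genes with the respective drug, and 5.27% with all 3 drugs. The 1 of 9 genes reduced stands beside 5.96%, 6.05% and 6.82%, and 5.21% with all 3 drugs. Of the 9 genes, 6 were higher and 3 lower than on the mock array with each drug. The higher ones include *NEUROG1*, which was not measured above background. The lower ones include *RASSF1*, whose differences were far smaller than the error of its spots. The median log2 difference of the 9 genes was 0.68, 0.46 and 0.41, beside -0.12, -0.09 and -0.23 for all named genes. The members were chosen with earlier results of these data known, and were not tested against other genes.

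**Figure D1:**
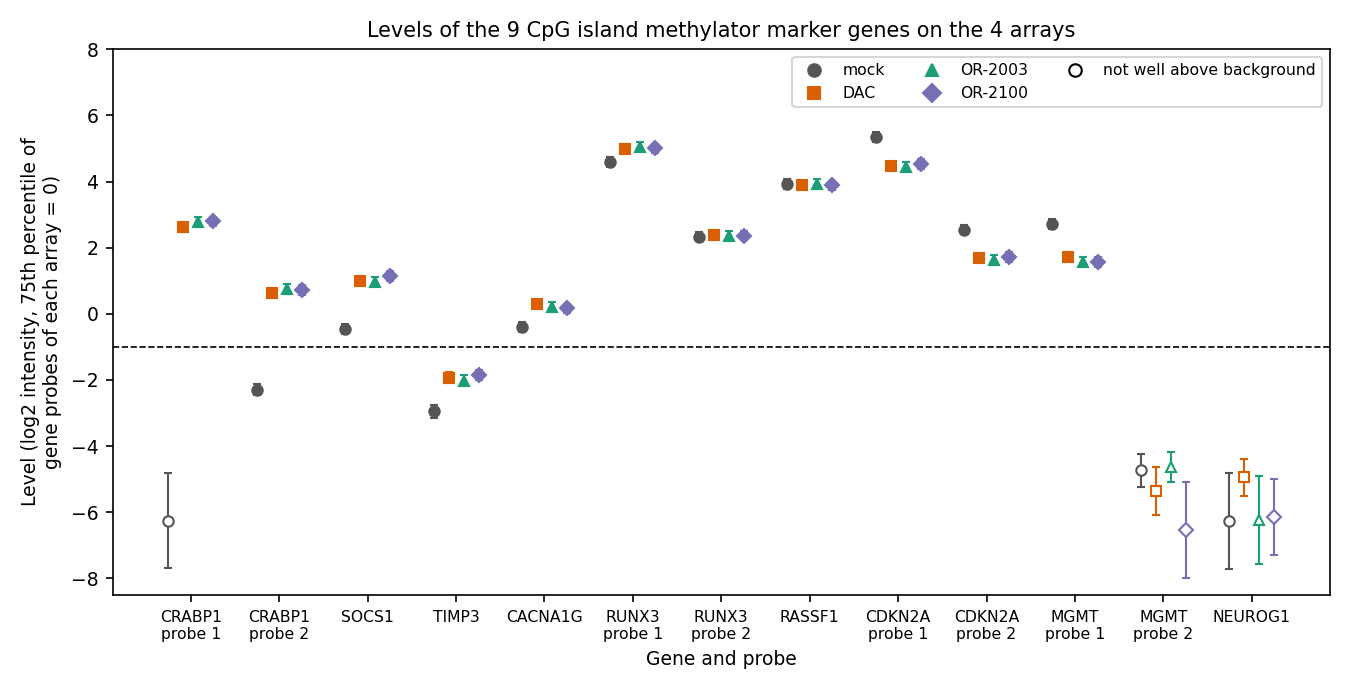
Level of each probe of the 9 genes (x axis) on the mock, DAC, OR-2003 and OR-2100 arrays (y axis, log2 intensity with the 75th percentile of gene probes at 0). Points are single spots, bars are the error of the scanner software, open symbols are spots not well above background, and the dashed line is the level of positive expression at -1, which CRABP1 crosses with each drug.

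*CRABP1* encodes a cytosolic protein that binds retinoic acid, and its difference from mock was the largest among the members. Its brighter probe had an intensity of 2.0 on the mock array, at the background, and of 1076, 1139 and 1218 with the drugs. The levels were -6.25 on the mock array and 2.61, 2.78 and 2.79 with the drugs. The 3 drug arrays were close to each other and far from the mock array. Taken against the lowest signal well above background on the mock array, *CRABP1* was at least 119, 134 and 135-fold higher. The other *CRABP1* probe was well above background on all arrays, with levels of -2.30, 0.61, 0.75 and 0.71. It was 7.53, 8.30 and 8.06-fold higher, with log2 differences of 2.91, 3.05 and 3.01 and an error of 0.22. Both probes were thus induced with each drug, but the sizes given by them differed. The log2 differences of the brighter probe were 6.90, 7.06 and 7.08 with a floor at the background limit. With normexp on the median intensity and an offset of 50, changes that were made together, they were 3.97, 4.17 and 4.20.

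*SOCS1* encodes an inhibitor of JAK kinases that is itself a target of cytokine signaling. Its only probe had levels of -0.45 without drug and 0.99, 0.97 and 1.14 with the drugs. It was above the positive level on the mock array already, and all 3 drug arrays were higher. The folds were 2.71, 2.69 and 3.01, with log2 differences of 1.44, 1.43 and 1.59 and an error of 0.21. Among the 15977 named genes measured above background on each array, 4.97% had a mean difference at least as high. With the 75th percentile taken over bright probes only, the log2 differences were larger, but the levels with drugs lay under -1 and the call was lost.

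*TIMP3* encodes an inhibitor of metalloproteinases that binds to the extracellular matrix. Its levels were -2.95, -1.93, -2.02 and -1.85 on the mock, DAC, OR-2003 and OR-2100 arrays. The drug arrays were all higher than the mock array, and all 4 were under the positive level, so that *TIMP3* was not called. The folds were 2.03, 1.90 and 2.14, with an error of the log2 difference of 0.26. The log2 differences were 1.02, 0.93 and 1.10, and were the same with a floor at the background limit. With normexp on the median intensity and an offset of 50, they were 0.29, 0.23 and 0.27. These changes were made together, and the part of each was not tested.

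*CACNA1G* encodes the pore subunit of a T-type calcium channel and is part of the commonly used methylator panels. Its levels were -0.40 on the mock array and 0.28, 0.20 and 0.16 with the drugs. All 3 drug arrays were higher, by 1.60, 1.52 and 1.48-fold with an error of 0.21 on the log2 scale, and the 2-fold criterion was not met. *RUNX3*, a transcription factor of the RUNX family, had levels of 4.59, 5.00, 5.05 and 5.00 at its brighter probe, which were 1.32, 1.38 and 1.33-fold higher with the drugs. At the other *RUNX3* probe the levels were 2.33, 2.38, 2.35 and 2.37, and the differences of 0.05, 0.02 and 0.03 were smaller than the error of 0.20. *NEUROG1*, a proneural transcription factor, was not well above background on any array, so that no fold is given. Its levels read -6.27, -4.95, -6.24 and -6.14.

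*RASSF1* encodes a scaffold protein of the Hippo pathway, and the silencing known in cancers concerns the transcript that starts at its upstream island. The only promoter window of *RASSF1* lies inside the gene, so that the upstream start was not among the windows examined. The level at its only probe was 3.93 on the mock array and 3.89, 3.92 and 3.88 with the drugs. The log2 differences of -0.04, -0.01 and -0.04 were far smaller than the error of 0.20, and their sign turned with the scaling. The files do not hold probe sequences, and which transcripts of *RASSF1* the probe reads was not determined.

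*CDKN2A* encodes the cell cycle inhibitors p16INK4a and p14ARF, which are made from separate promoters with shared downstream exons. Its brighter probe had levels of 5.34 on the mock array and 4.46, 4.45 and 4.52 with the drugs. The other *CDKN2A* probe had levels of 2.55, 1.67, 1.62 and 1.73. On both probes the mock array was the highest. The mock array was 1.85, 1.86 and 1.76-fold higher at the brighter probe and 1.83, 1.90 and 1.77-fold higher at the other one, so that the 2-fold criterion was not met at either probe. The log2 differences lay between -0.93 and -0.82, with an error of 0.20. The accessions of the probes differ, but which of the transcripts each probe reads was not determined. Scaled by the median, *CDKN2A* was called reduced with DAC and OR-2003.

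*MGMT* encodes the protein that removes alkyl groups from guanine in DNA. Its measured probe had levels of 2.72 on the mock array and 1.71, 1.57 and 1.56 with the drugs. The mock array was the highest, by 2.01, 2.22 and 2.23-fold, and the log2 differences were -1.01, -1.15 and -1.16 with an error of 0.20. These values lie at the threshold, and the call was lost with all 3 drugs under quantile normalization or with the percentile of bright probes. The direction was lower for each drug under every processing tried. Among the same 15977 genes, 9.08% had a mean difference at least as low. The other *MGMT* probe was not well above background on any array.

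**Figure D2:**
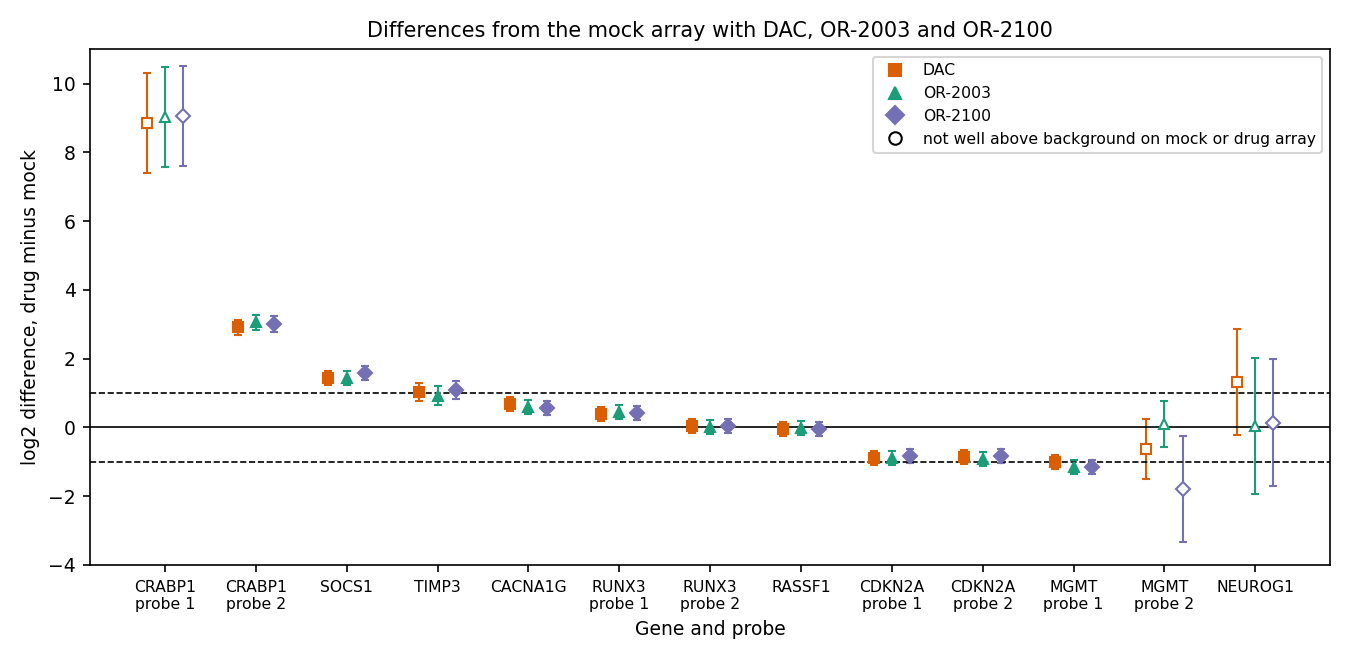
Difference in level from the mock array (y axis, log2) for each probe of the 9 genes (x axis) with DAC, OR-2003 and OR-2100. Bars are the errors of the scanner software for the difference, dashed lines mark 2-fold, and open symbols rest on a spot not well above background, so that their size is no measured difference. The symbols of the 3 drugs lie together at each measured probe.

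The 3 compounds were compared at the same dose and day. The spots of 11 probes of 8 genes were well above background on all 3 drug arrays. Between OR-2003 and DAC the log2 differences of these probes ranged from -0.14 to 0.17, between OR-2100 and DAC from -0.15 to 0.18, and between OR-2100 and OR-2003 from -0.05 to 0.17. None of the 33 differences exceeded the 95% interval that the spot errors give. The error of a difference was 0.20 to 0.23 at these probes, bright or dim. Such an interval is wider than most differences between the compounds over all genes, so that it could hardly be exceeded. For *SOCS1*, OR-2100 and DAC differed by 0.15, with an interval of -0.25 to 0.55 from the error of the spots. For the brighter *CRABP1* probe the difference was 0.18, with an interval of -0.22 to 0.58. For *MGMT* it was -0.15, with an interval of -0.55 to 0.25. Differences of up to about these bounds between the compounds are thus not resolved by 1 spot per array, and the spread between cultures is not known. Over all named genes measured, the median absolute difference was 0.08, 0.11 and 0.12 for the 3 pairs, and the 95th percentile 0.39, 0.44 and 0.46. For probes with 10 spots on each array, the median SD between spots was 0.07 at levels of 0 to 2 and 0.06 above 2. This SD also holds no difference between cultures.

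**Figure D3:**
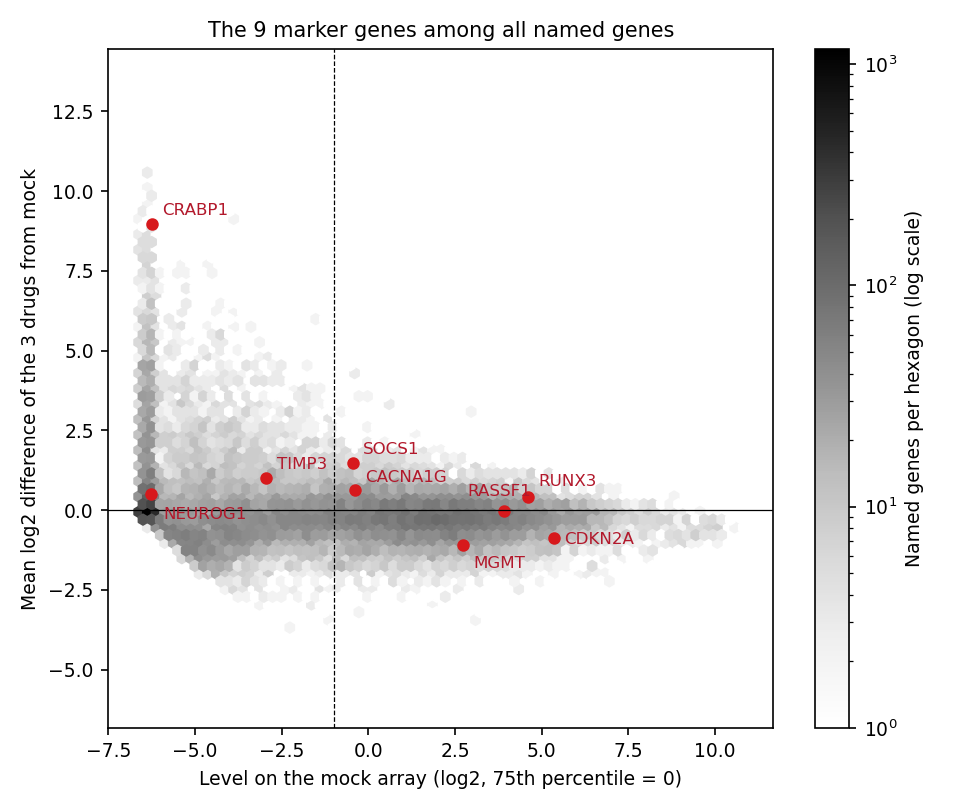
Level on the mock array (x axis, log2 intensity with the 75th percentile at 0) against the mean log2 difference of the 3 drugs from mock (y axis) for 25006 named genes, each read from its brightest probe. Grey shading is the number of genes on a log scale, red points are the 9 marker genes, and the dashed line is the level of positive expression at -1. CRABP1 lies at 8.98 above a mock level at background, which is not a measured fold, whereas SOCS1 lies at 1.49, CDKN2A at -0.87 and MGMT at -1.10.

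Relatives and partners of the 9 genes were next examined, in lists that comprise 100 genes on the array. These lists were also drawn up with earlier results of these data known. The single drugs induced 9, 9 and 11 of them and reduced 7 each. With all 3 drugs 9 were induced (9%, beside 5.27% of all named genes), and 7 were reduced (7%, beside 5.21%). The median log2 differences of the 100 genes were 0.03, 0.01 and -0.11.

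In the list of retinoid binding and response, to which *CRABP1* belongs by function, 3 of 14 genes were induced with all 3 drugs and 2 were reduced. *RBP4*, the carrier of retinol in blood, had levels of -4.20 on the mock array and 1.23, 1.26 and 1.46 with the drugs, and was 43.1, 44.0 and 50.7-fold higher. Its mock level lay close to -4.29, the lowest level well above background on that array, so that the size of this fold rests on a dim spot. *STRA6*, the membrane receptor that takes up retinol from this carrier, had levels of -3.22, 1.5, 1.57 and 1.84. *CYP26A1*, which breaks down retinoic acid and is a classic target of the retinoic acid receptors, had levels of -3.72, 0.37, 0.34 and 0.40, and was 17, 16.7 and 17.4-fold higher. For these 3 genes the mock array was far under the positive level, and the drug arrays were all over it. The other *STRA6* probe was at the background without drug and stayed under the positive level with the drugs. *ALDH1A3*, which makes retinoic acid, was reduced, with levels of 5.22 on the mock array and 3.64, 3.57 and 3.51 with the drugs. *RARG*, a retinoic acid receptor, was also reduced, with log2 differences of -1.21, -1.30 and -1.18. *CRABP2*, the close relative of *CRABP1*, had a mock level of 3.18 and differences of -0.23, -0.30 and -0.42, and was not called. The median over the list was 0.25, -0.06 and -0.21, so that the list had no common direction.

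Among the SOCS family, 0 of the other 7 genes were induced or reduced, and their log2 differences lay between -0.76 and 0.75. In the list of JAK genes, whose kinases *SOCS1* inhibits, and STAT genes, 1 of 10 was induced with each drug and 0 were reduced. *STAT5A* was at least 4.64, 4.15 and 4.96-fold higher but stayed under the positive level.

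In the list of cell cycle brakes and their partners, 3 of 14 genes were induced and 2 reduced. *CDKN2D*, an inhibitor of the same family as p16INK4a, was higher by 1.30, 1.28 and 1.16 on the log2 scale. *CDKN1A*, which encodes the inhibitor p21, was higher by 1.26, 1.19 and 1.22. *CDK6*, a kinase that p16INK4a inhibits, was higher by 1.60, 1.54 and 1.22, whereas *CDK4*, the other such kinase, was lower with differences of -1.26, -1.21 and -1.28. *CDKN2B*, the neighbor of *CDKN2A*, had levels of -2.25, -2.27, -2.28 and -2.49 and was not called.

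Of the 8 genes of alkylation and mismatch repair, to which *MGMT* is related by function, 0 were induced and 1 was reduced with each drug. The median log2 differences of the list were -0.47, -0.42 and -0.50. Those of all named genes well above background on every array were -0.18, -0.17 and -0.21. *IGF2*, a growth factor and panel gene, had a mock level of 4.94 and was higher by 0.47, 0.50 and 0.57.

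In the other lists few genes were called. *ASCL2*, a transcription factor of intestinal stem cells that was listed with the proneural relatives of *NEUROG1*, was at the background without drug and had levels of -0.33, -0.25 and -0.16 with the drugs, at least 15.5, 16.4 and 17.4-fold higher. *NEUROG2* was at least 2.21, 2.31 and 2.02-fold higher, with levels under the positive level. *MMP9*, a metalloproteinase that TIMPs inhibit, was 7.03, 7.02 and 6.97-fold higher, with levels of 0.32, 3.13, 3.13 and 3.12. *TIMP1*, a relative of *TIMP3*, was higher by 0.60, 0.66 and 0.84 and was not called. None of *RUNX1*, *RUNX2* and *CBFB* was called when read from its brightest probe. *CACNA1B*, another calcium channel subunit, and *MOB1A*, a protein of the Hippo pathway, were reduced at 1 of their 2 probes each. Read from their brightest probes, the 14 housekeeping genes held no call, with median differences of -0.16, -0.14 and -0.27. Their single differences ranged from -0.97, for *RPLP0* with OR-2100, to 0.36. Of the 5 *PPIA* probes, 1 was reduced with all 3 drugs.

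**Figure D4:**
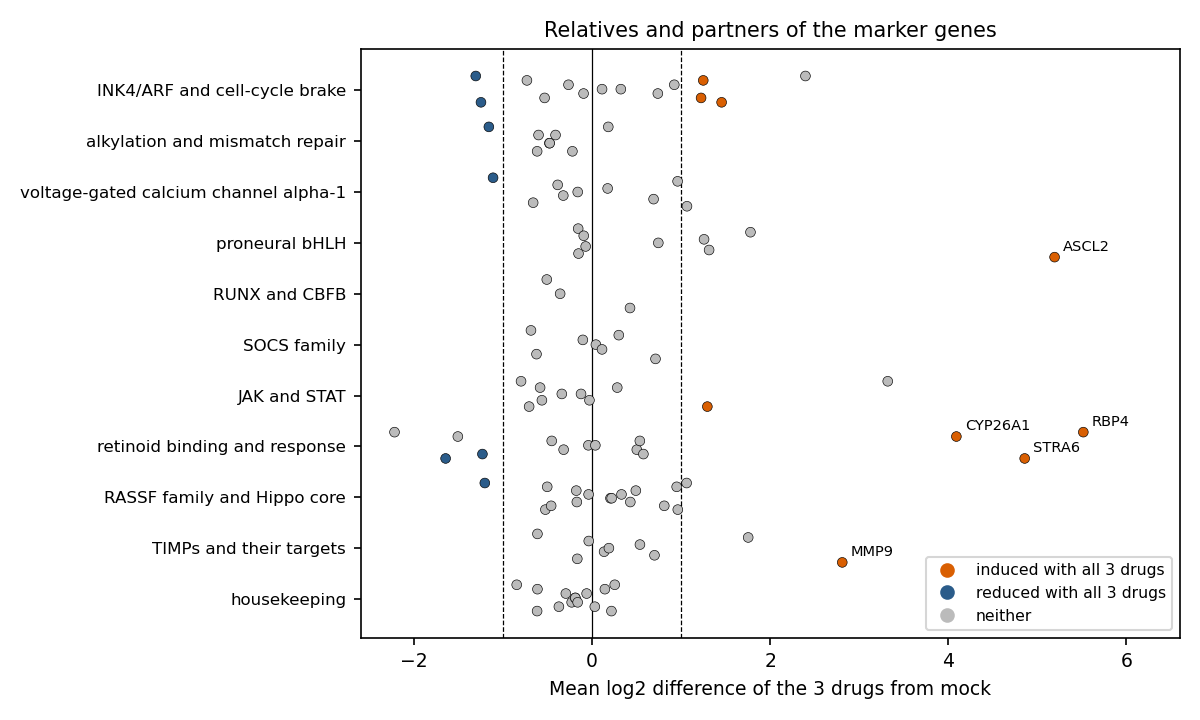
Mean log2 difference of the 3 drugs from mock (x axis) for each gene of the lists of relatives and of housekeeping genes (y axis). Each point is 1 gene, orange points were induced and blue points reduced with all 3 drugs, dashed lines mark 2-fold, and the vertical position within a list only separates the points. RBP4, STRA6, CYP26A1, ASCL2 and MMP9 lie farthest to the right among the genes called.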

How the data were processed

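Total RNA of HML58-3 cells was hybridized to 4 Agilent SurePrint arrays. The authors deposited the scanner output, in which Feature Extraction 12.1.0.3 gives a background-corrected intensity per spot, and a series table of the same intensity values, which was identical and so tests nothing. Control spots, and gene spots marked as outliers or non-uniform, were dropped. Spots were averaged per probe on the log2 scale, and each array was scaled to its 75th percentile. The array design names probes by accession, and a RefSeq gene table of GRCh38.p14 named 34892 of 58201 probes. The array files name another build, so that coordinates are given for the promoter windows only, as in the RefSeq promoter table. Probes at the background (not well above it by the software's criterion) without drug have lower bounds of the fold, against the higher of their own signal and the lowest signal well above background there. Groups follow the sample labels, with 1 array each. With so few arrays, their number limits the precision. The spike-in controls had a slope of 0.90 on the mock array and of 0.91 to 0.96 with the drugs.

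The members and the lists of relatives were chosen with earlier results of these data known. The genes named are all members, the relatives called with all 3 drugs, the panel gene *IGF2*, and the 2 genes closest to each induced member. *CRABP2*, *CDKN2B*, *STAT5A*, *NEUROG2*, *TIMP1*, *RUNX1*, *RUNX2*, *CBFB*, the markers and the neighboring genes were named after their values were seen. Some relatives that the lists hold are counted but not reported by name here. The counting was checked on simulated data. Alternatives were the series table, normexp with an offset of 50 on the deposited median intensity, quantile normalization, the percentile of bright probes, median scaling, a background floor, marked spots kept, thresholds of 4-fold, of a level of 0 and of no level, the median of spots, the mean of probes, any probe and scaling by 9 spike-in probes. Python 3.11.15, numpy 2.4.6, pandas 2.3.3, R 4.3.3 and limma 3.58.1 were used.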

Additional observations from a re-analysis of the deposited data

How the results depend on the processing

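No paired analysis was possible because a single array stood for each condition, and for the same reason no array could be left out. The calls of *CRABP1* stood in all 15 settings. These include the main setting and the identical series table, which could not change a call. The median of spots left the differences of the members as they were, since each member probe has 1 spot. The count of members induced fell from 2 to 1 with each drug under the percentile of bright probes and the 4-fold threshold, where *SOCS1* was lost, and was 4 with DAC without a level threshold, which added *NEUROG1* and *TIMP3*. With OR-2100 it was 3 without a level threshold and 3 under median scaling, both times with *TIMP3* added. The count of members reduced fell from 1 to 0 with each drug under quantile normalization, the percentile of bright probes, the 4-fold threshold and the mean of the probes, with DAC under normexp, and with DAC and OR-2100 under the spike-in scaling, which was chosen after seeing the data. It was 2 with DAC and OR-2003 under median scaling, which moved the median of all named genes to -0.23 and -0.32. The percentile of bright probes and median scaling also move the level of -1 relative to background, so that percent induced of all genes with DAC was 3.32% and 11.6%. The median of the members stayed above 0, from 0.29 to 0.88 with DAC, 0.23 to 0.66 with OR-2003 and 0.22 to 0.63 with OR-2100. Relatives induced with all 3 drugs numbered 5 with the 4-fold threshold and 15 without a level threshold. Relatives reduced numbered 4 under normexp, 2 under the percentile of bright probes, 0 with the 4-fold threshold and 3 under the spike-in scaling. The retinoid genes induced numbered 1 under the percentile of bright probes, where *RBP4* and *CYP26A1* were lost, as was *ASCL2*, which was also lost with a level threshold of 0. *CDKN1A* was lost under normexp and median scaling, and *RARG* under the percentile of bright probes and the spike-in scaling. *MOB1A* and *CACNA1B* were lost under normexp, the percentile of bright probes, the mean of the probes and the spike-in scaling. *MOB1A* was also lost under quantile normalization, and *CACNA1B* with a level threshold of 0. With the mean of the probes, which takes in the *MGMT* probe at background, the largest difference between drugs was 0.66 for OR-2100 and DAC and 0.95 for OR-2100 and OR-2003, and it was 0.46 for the latter under the spike-in scaling. No called difference of a member changed sign. The spot error limits what can be said of dim probes, as the median SD between spots of replicated probes was 0.46 under a level of -4 and 0.06 above 2.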

Other observations

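The genes next to the 9 markers in the genome were also read, up to 2 on each side, which gave 36 genes on the array. With all 3 drugs, 2 of them were induced and 4 reduced, beside 5.27% and 5.21% of all named genes, and the 2 induced are near that share. *CDKN2A-AS1*, an antisense gene that overlaps *CDKN2A*, had a level of -4.35 on the mock array, at the background, and of 1.41, 1.69 and 1.56 with the drugs. It was at least 51.9, 63.1 and 57.4-fold higher at its only probe, whereas both *CDKN2A* probes were lower with each drug, as given above. Whether the probe of *CDKN2A-AS1* reads other transcripts was not tested. *LOC101927253*, which overlaps *CACNA1G*, was higher by 1.14, 1.11 and 1.08 on the log2 scale. *MTAP*, the neighbor of *CDKN2A* that recovers methionine, was reduced at 1 of its 3 probes by -1.23, -1.26 and -1.27. *ABCC3* and *SPATA20* next to *CACNA1G*, and *HYKK* next to *CRABP1*, were the others reduced. *EBF3* next to *MGMT*, a transcription factor gene, had levels of -3.42, -2.92, -3.30 and -3.34 and was not called.

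The 2 named genes whose 4 levels lay closest to those of *SOCS1* were *MID2*, at a Euclidean distance of 0.11 over the 4 arrays, and *LOXL3* at 0.16. For *CRABP1* they were *SNORD114-15* at 0.20 and *DAZ1* at 0.29, and both lay at the background without drug.

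Genes were also split by the CG number of their promoter windows, with the lowest number among the members, taking the highest window of each gene, as the border at 18. Of genes with a mock level under -1, 238 of 2625 with 18 CG or more were induced with all 3 drugs (9.07%), and 355 of 6483 with fewer (5.48%). Of genes with a mock level of -1 or more, 3.03% and 4.51% were induced. Over all mock levels the shares were 4.72% and 5.18%, so that the order depended on the mock level. The border is the window of *CRABP1*, an induced member, and genes under -1 were not matched for their mock level. These shares describe 4 arrays and were not tested.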
